A study of Mus musculus with 18 samples.

Results

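Genes of the unfolded protein response and the integrated stress response were followed through the first 3 days after myocardial infarction in the mouse heart. The 10 genes, taken by name and found by their Ensembl identifiers, were Ern1, Xbp1, Atf4, Hspa5, Sdf2l1, Herpud1, Ddit3, Trib3, Chac1 and Asns, out of 30583 genes in the deposited count table. All 10 passed the filter on low counts, which left 16311 genes to test. The study used 18 male C57BL/6JR mice, 12 weeks old, in 6 groups of 3. In 5 groups the left anterior descending coronary artery was tied off. Their hearts were sampled between 10 min and 72 h later, with 1 h, 6 h and 24 h in between. Sham mice, entered as 0 h, had the suture passed without a tie. RNA came from the left ventricle, in the ligated mice from its infarcted region, with 1 library per mouse. With 1 sham group only, comparisons with sham cannot tell ligation apart from time since surgery or from the region sampled. All mice were under sodium pentobarbital, given as 50 mg/kg in the design text. On the labels of the ligated mice the dose instead steps from 50 mg/kg at 10 min to 63 mg/kg at 72 h, so as labelled it cannot be told apart from the time point.

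Proteins bound for secretion or for membranes are folded in the endoplasmic reticulum (ER). When unfolded protein builds up there, 3 membrane sensors respond. IRE1-alpha, the product of Ern1, splices Xbp1 messenger RNA so that it encodes an active transcription factor. ATF6 is cut to release another. PERK phosphorylates the initiation factor eIF2-alpha, as do kinases that sense amino acid shortage, haem shortage or viral RNA. This common step is the integrated stress response: it slows protein synthesis while favouring translation of Atf4 messenger RNA. ATF4 and its partners switch on amino acid supply genes such as Asns and the regulators Ddit3 (CHOP), Trib3 and Chac1, while ATF6 and spliced XBP1 raise chaperones and degradation factors such as Hspa5, Sdf2l1 and Herpud1. In the heart both responses have been studied as reactions of muscle cells to ischaemia. Gene-level counts show neither Xbp1 splicing nor Atf4 translation.

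Known binding motifs of these factors were looked for in the promoters, since the genes are usually divided by which factor acts on them. All 10 genes matched an entry among the RefSeq promoter windows of build GRCm38.p6 (250 bases before to 50 after each start), and 4 motifs were searched on both strands. The ER stress response element, bound by ATF6, has the letters CCAAT and CCACG with 9 bases of any kind between them, and occurred in 0.119% of all 32851 windows and in 1 of the 10 genes. A second form, ERSE-II, has ATTGG and CCACG with 1 base between them, and occurred in 0.0365% of windows and in 1 of the 10. The XBP1 motif TGACGTGG occurred in 0.676% of windows and in 0 of the 10. The ATF4 and CHOP composite motif TGATGNAA (CARE) occurred in 3.97% of windows and in 4 of the 10, namely Trib3, Chac1, Asns and Herpud1. No motif searched here is a stretch of another. The stretches that hold a motif upstream of the start are shown for an ER chaperone, 2 genes of the ATF4 branch and a degradation gene. The letters do not separate these kinds of gene, since the degradation gene Herpud1 carries the same CARE letters as Chac1. The Hspa5 and Asns stretches lie inside the gene span of the GENCODE annotation, which starts further upstream than the RefSeq start, and those of Chac1 and Herpud1 lie before the gene. They are written 5′ to 3′ on the strand of the gene, with the motif letters in capitals.
Hspa5, chr2:34772020-34772048, plus strand, ERSE: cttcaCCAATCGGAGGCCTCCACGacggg
Chac1, chr2:119351034-119351071, plus strand, CARE on the opposite strand: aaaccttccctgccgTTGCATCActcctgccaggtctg
Asns, chr6:7693214-7693243, minus strand, CARE: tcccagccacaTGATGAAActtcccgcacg
Herpud1, chr8:94386302-94386402, plus strand, CARE on the opposite strand, then ERSE-II: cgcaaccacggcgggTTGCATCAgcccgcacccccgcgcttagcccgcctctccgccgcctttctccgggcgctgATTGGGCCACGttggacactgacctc
Hspa5 carried its element 65 to 47 bases before the start, and Herpud1 was the gene with motifs of both kinds. In Trib3 the motif lay 15 to 22 bases after the start. In Ddit3, Atf4, Xbp1, Ern1 and Sdf2l1 these letters were not in the window. A match of letters is a description of the sequence and not a measured binding site.

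The libraries held 18199172 to 25062351 counted reads. The labels name cardiomyocytes as the cell type but the material as myocardial tissue, and the marker lists showed mixed tissue whose makeup moved with time. Levels here are CPM, the counts of a gene relative to the scaled total of its library, with scaling by the trimmed mean of M values (TMM). Summed over 7 cardiomyocyte markers, the level was 55123 to 60176 CPM in sham, 50466 to 60576 at 6 h, 24167 to 37863 at 24 h and 13414 to 17579 at 72 h. Summed over 6 neutrophil markers it was 3.03 to 4.56 in sham, 101 to 748 at 6 h, 43.0 to 744 at 24 h and 59.2 to 73.5 at 72 h. Macrophage markers went from 246 to 280 in sham (range) to 527 to 606 at 24 h and 3105 to 4121 at 72 h. Fibroblast markers went from 691 to 769 in sham to 795 to 1125 at 24 h and 9939 to 12463 at 72 h. Markers of B and plasma cells, which secrete heavily, summed to at most 6.06 CPM in any library. Replicate 1 at 6 h and replicate 3 at 24 h held the highest neutrophil sums of their groups, and the former also held atrial markers at 91.9 CPM. Both libraries also held the lowest cardiomyocyte and the highest macrophage sums of their groups. In whole tissue, fewer cells of a type and less RNA per cell cannot be told apart. The part of these shifts in the results below was not tested.

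**Figure D1:**
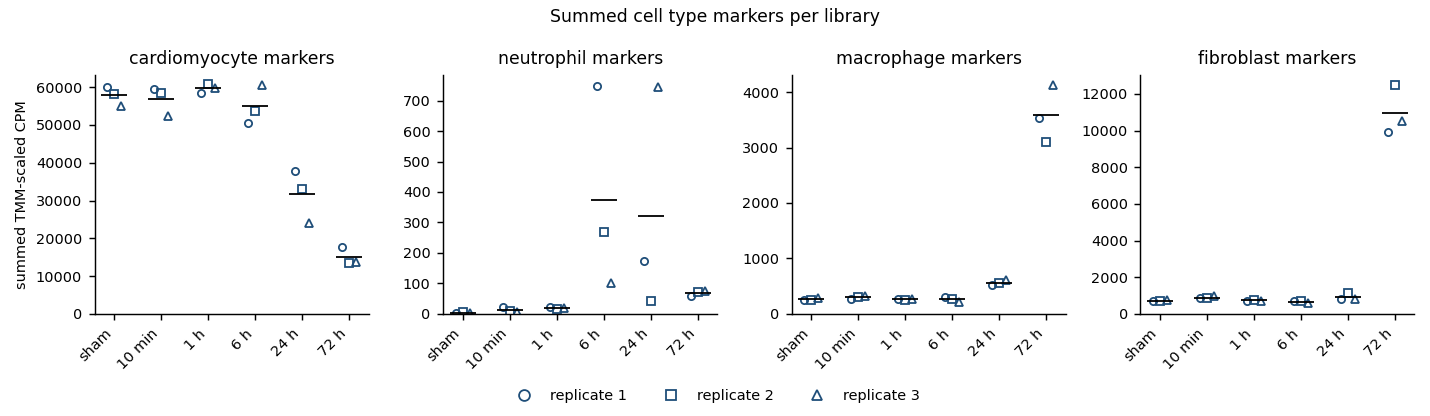
Summed TMM-scaled CPM of cardiomyocyte, neutrophil, macrophage and fibroblast markers (y axis, linear) in each of the 18 libraries by group (x axis); symbols are replicates and dashes are group means. Cardiomyocyte markers were lowest and fibroblast and macrophage markers highest at 72 h, while neutrophil markers peaked in replicate 1 at 6 h and replicate 3 at 24 h.

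At 10 min and 1 h after ligation 0 of the 10 genes differed from sham in edgeR's quasi-likelihood test (adjusted p under 0.05 over all genes tested). DESeq2 also called 0, and at an unadjusted p under 0.05 there was 1 gene at 10 min and 0 at 1 h. Of all genes tested, 0.0736% were called at 10 min and 0.294% at 1 h. At 6 h, 4 of the 10 genes had risen and 0 had fallen: Ern1, Xbp1, Atf4 and Asns, the sensor, 2 of the transcription factors and the amino acid gene. Of all genes, 28.4% were called at 6 h, 16.3% higher and 12.2% lower. At 24 h, 5 had risen (Xbp1, Atf4, Asns and the chaperones Hspa5 and Sdf2l1) and 1, Herpud1, had fallen, with 43.8% of all genes called, 23.7% higher and 20.2% lower. At 72 h, 6 had risen and 3 (Ddit3, Chac1 and Herpud1) had fallen, with 66.4% of all genes called, 34.2% higher and 32.2% lower. With only 10 genes, chosen with earlier results of these data known, these counts set nothing apart and are given as a description. The median log2 fold change over the 10 genes was 0.49 at 6 h, 0.91 at 24 h and 0.46 at 72 h, against -0.01, 0.01 and 0.03 for the whole table. These comparisons share the 3 sham libraries.

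**Figure D2:**
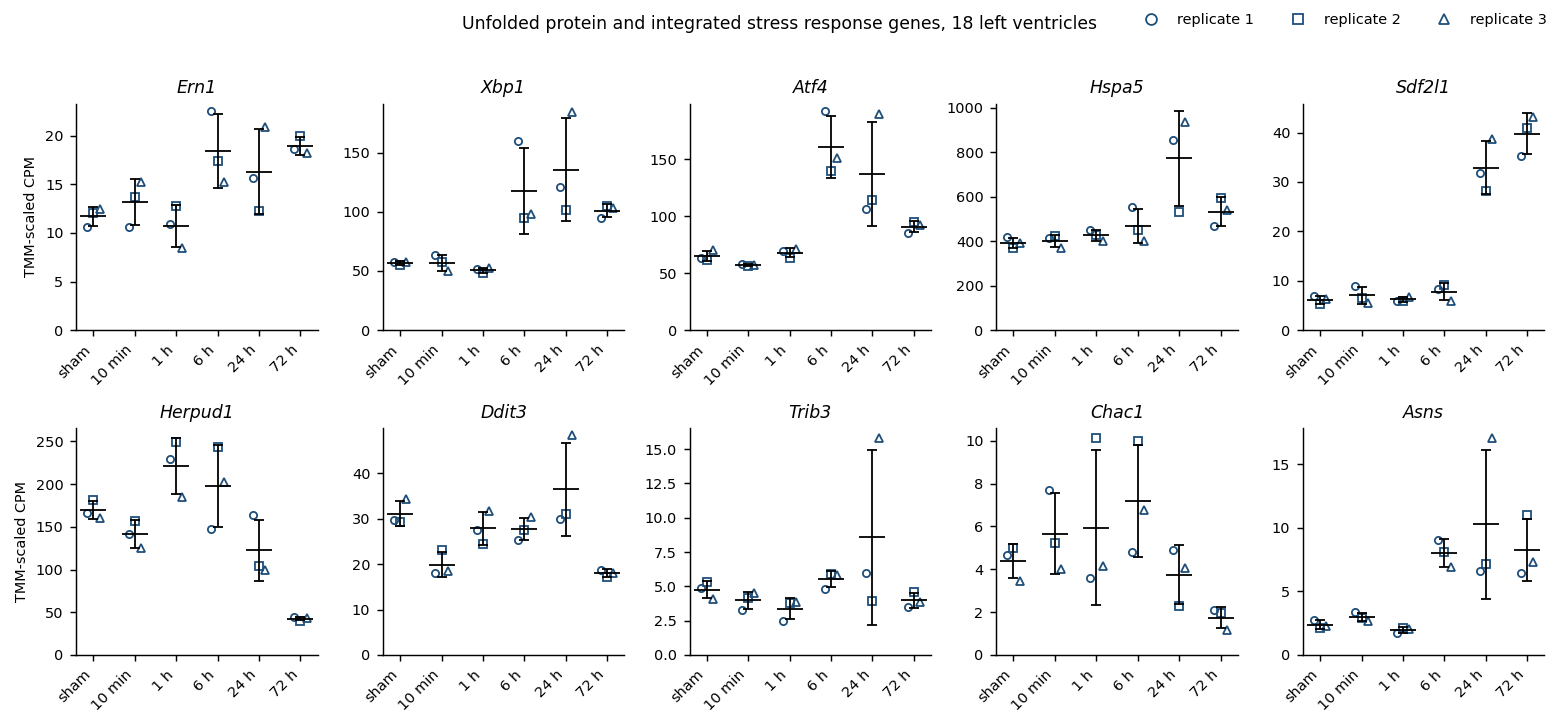
TMM-scaled CPM (y axis, linear, from 0) of the 10 genes in the 18 libraries by group (x axis); symbols are replicates, dashes are means and bars are SD (n = 3). Atf4, Xbp1 and Asns stood above all sham libraries from 6 h on, Sdf2l1 from 24 h, and Herpud1 was lowest at 72 h.

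Ern1 encodes the sensor IRE1-alpha (chromosome 11, 106394650 to 106487852, minus strand, ENSMUSG00000020715, build GRCm38 as all gene positions here). In replicates 1, 2 and 3 it stood at 10.6, 12.0 and 12.4 CPM in sham, 10.6, 13.7 and 15.2 at 10 min, and 10.9, 12.8 and 8.45 at 1 h. It stood at 22.6, 17.4 and 15.2 CPM at 6 h, 15.7, 12.3 and 20.9 at 24 h, and 18.6, 20.0 and 18.3 at 72 h. All 6 h and 72 h libraries were above all sham libraries, while 1 library of 24 h lay within the sham range. The gene rose at 6 h by a log2 fold change of 0.65 (SE 0.19, edgeR adjusted p = 0.0164) and at 72 h by 0.70 (SE 0.19, edgeR adjusted p = 0.00326). At 24 h the value was 0.47 (edgeR adjusted p = 0.0522), which stood at the edge of the threshold. It passed without 24 h replicate 2 (0.64, edgeR adjusted p = 0.0113) and without any of 5 libraries of other groups, 10 min replicate 1, 1 h replicates 2 and 3 and 6 h replicates 1 and 3 (0.47, edgeR adjusted p = 0.0386 to 0.0496). The 6 h call was lost without sham replicate 1 (0.59, edgeR adjusted p = 0.0687) and without 6 h replicate 1 (0.48, edgeR adjusted p = 0.103).

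Xbp1 encodes the transcription factor that IRE1-alpha activates (chromosome 11, 5520659 to 5525893, plus strand, ENSMUSG00000020484). Its sham libraries read 58.0, 54.8 and 57.7 CPM, with 63.4, 57.4 and 49.8 at 10 min and 51.5, 48.1 and 52.3 at 1 h. At 6 h they read 159.8, 94.9 and 98.5 CPM, at 24 h 120.9, 101.3 and 184.4, and at 72 h 94.4, 105.3 and 103.1. Every library from 6 h on was above every earlier library. The highest at 6 h was replicate 1 and at 24 h replicate 3. These held the highest neutrophil and macrophage sums and the lowest cardiomyocyte sum of their groups. Xbp1 was not alone in this: 6 h replicate 1 was the highest 6 h library for 5 of the 10 genes, and 24 h replicate 3 the highest 24 h library for 8. The part of these shifts in the result was not tested. The log2 fold change against sham was 1.05 at 6 h (SE 0.20, edgeR adjusted p = 0.00104), 1.25 at 24 h (edgeR adjusted p = 0.000144) and 0.83 at 72 h (edgeR adjusted p = 0.0014). Without 6 h replicate 1 the 6 h mean went from 117.7 to 96.7 CPM, and without 24 h replicate 3 the 24 h mean went from 135.6 to 111.1. The Xbp1 calls held without either library. These counts sum spliced and unspliced Xbp1 messenger RNA.

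Atf4, the transcription factor whose translation the integrated stress response favours, maps to chromosome 15, 80255184 to 80257541, plus strand (ENSMUSG00000042406). Its level in sham was 63.5, 61.8 and 70.0 CPM, against 58.4, 56.3 and 56.9 at 10 min and 69.5, 63.6 and 71.1 at 1 h. At 6 h it was 192.0, 140.1 and 150.8 CPM, the highest group mean of this gene (161 ± 27.4, SD, n = 3). It was 106.7, 114.6 and 189.8 CPM at 24 h and 85.4, 94.9 and 92.2 at 72 h. The 3 later groups were above all sham libraries without overlap. Atf4 rose from 1 h to 6 h by a log2 fold change of 1.24 (edgeR adjusted p = 7e-05), and against sham by 1.30 at 6 h (SE 0.16, edgeR adjusted p = 3.01e-05). It was 1.07 above sham at 24 h (edgeR adjusted p = 8.19e-05) and 0.48 at 72 h (edgeR adjusted p = 0.0148). The 72 h call was lost without sham replicate 2 (0.44, edgeR adjusted p = 0.0537). The change from 6 h to 24 h (-0.23, edgeR adjusted p = 0.3) was not called. Without 24 h replicate 3 the 24 h mean went from 137.0 to 110.6 CPM, and the fall from 6 h to 24 h was called. From 24 h to 72 h Atf4 fell by 0.59 on the log2 scale (edgeR adjusted p = 0.00528).

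Hspa5 encodes BiP, the main chaperone of the ER lumen, which also holds the stress sensors inactive (chromosome 2, 34771970 to 34777547, plus strand, ENSMUSG00000026864). It read 416.8, 369.96 and 390.95 CPM in sham, 412.6, 421.8 and 370.6 at 10 min, 450.4, 428.4 and 402.0 at 1 h, and 551.8, 451.8 and 400.4 at 6 h. At 24 h it read 853.1, 529.8 and 935.8 CPM and at 72 h 466.7, 593.1 and 539.9. All libraries of 24 h and 72 h were above all sham libraries, and the 24 h libraries were widely spread (773 ± 215, SD, n = 3, against 393 ± 23.4 in sham). Hspa5 rose against sham at 24 h by a log2 fold change of 0.98 (SE 0.17, edgeR adjusted p = 0.000173) and at 72 h by 0.44 (SE 0.16, edgeR adjusted p = 0.0238). The 72 h call was lost when any of 4 single libraries was left out. These were sham replicates 2 (0.39, edgeR adjusted p = 0.0824) and 3 (0.43, edgeR adjusted p = 0.0586) and 72 h replicates 2 (0.36, edgeR adjusted p = 0.0973) and 3 (0.43, edgeR adjusted p = 0.053). From 6 h to 24 h Hspa5 rose by 0.72 (edgeR adjusted p = 0.0034). The libraries of these groups overlapped, with 24 h replicate 2 (529.8 CPM) below 6 h replicate 1 (551.8 CPM). The call for this rise was lost with only the 6 libraries compared. From 24 h to 72 h Hspa5 fell by 0.54 (edgeR adjusted p = 0.0108). That call was lost without 24 h replicate 1 (-0.46, edgeR adjusted p = 0.0515), 24 h replicate 3 (-0.38, edgeR adjusted p = 0.0547) or 72 h replicate 1 (-0.45, edgeR adjusted p = 0.0512).

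Sdf2l1 encodes an ER protein that works with BiP and its J-domain partners on misfolded protein (chromosome 16, 17130138 to 17132383, minus strand, ENSMUSG00000022769). It stood at 6.93, 5.34 and 6.35 CPM in sham and between 5.58 and 9.19 CPM in all 9 libraries of 10 min, 1 h and 6 h. At 24 h it stood at 31.9, 28.2 and 38.7 CPM and at 72 h at 35.2, 40.9 and 43.2. Each 24 h and 72 h library was above each of the other 12 libraries. The log2 fold change against sham was 2.40 at 24 h (SE 0.18, edgeR adjusted p = 1.02e-07) and 2.68 at 72 h (SE 0.18, edgeR adjusted p = 6.37e-10). From 6 h to 24 h alone the rise was 2.07 (edgeR adjusted p = 1.15e-06). Sdf2l1 had its highest mean at 72 h (39.8 ± 4.12 CPM, SD, n = 3), and the difference of 0.28 from 24 h was not called (SE 0.16, edgeR adjusted p = 0.164). Without 24 h replicate 3 that difference was 0.40 and was called (edgeR adjusted p = 0.0463).

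Herpud1 encodes an ER membrane protein of the machinery that exports misfolded protein for degradation (chromosome 8, 94386438 to 94395377, plus strand, ENSMUSG00000031770). It went the other way. Its sham libraries read 165.8, 181.6 and 160.8 CPM, those of 10 min 141.5, 157.3 and 124.7, and those of 1 h 229.7, 249.4 and 184.5. All 1 h libraries were above all sham libraries, but the log2 fold change of 0.39 was not called (edgeR adjusted p = 0.906). At 6 h it read 147.5, 243.1 and 202.2 CPM, at 24 h 164.0, 104.1 and 99.05, and at 72 h 44.4, 40.1 and 43.3. The 72 h libraries were all below every other library. Herpud1 fell at 72 h by 1.99 on the log2 scale against sham (SE 0.19, edgeR adjusted p = 8.75e-08) and from 24 h to 72 h by 1.52 (edgeR adjusted p = 4.43e-06). At 24 h it was 0.47 below sham on the log2 scale at the edge of the threshold (edgeR adjusted p = 0.0489), with 1 of 3 libraries inside the sham range. Leaving out any of 14 single libraries ended that call; without 24 h replicate 3 the value was -0.34 (edgeR adjusted p = 0.207). The fall from 6 h to 24 h (-0.69, edgeR adjusted p = 0.0104) was lost without 6 h replicate 2 (-0.51, edgeR adjusted p = 0.0583) or 24 h replicate 2 (-0.59, edgeR adjusted p = 0.0512). Over the same groups the 7 cardiomyocyte markers also fell: 5 of 7 were called lower at 24 h and 7 of 7 at 72 h. Their part in the result was not tested.

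Ddit3 encodes CHOP, a transcription factor linked to cell death under lasting stress (chromosome 10, 127290774 to 127296288, plus strand, ENSMUSG00000025408). Its sham libraries read 29.6, 29.4 and 34.2 CPM and those of 10 min 17.99, 23.1 and 18.5. All 10 min libraries were thus below all sham libraries, yet the difference of -0.64 on the log2 scale was not called (edgeR adjusted p = 0.215). It was called when 24 h replicate 3, which is in neither group, was left out (-0.64, edgeR adjusted p = 0.0213). Ddit3 read 27.5, 24.4 and 31.7 CPM at 1 h, 25.3, 27.6 and 30.3 at 6 h, and 29.95, 31.1 and 48.3 at 24 h. At 6 h and 24 h, when Atf4 had risen, Ddit3 was not called, with log2 fold changes of -0.16 (SE 0.16, edgeR adjusted p = 0.461) and 0.23 (SE 0.15, edgeR adjusted p = 0.246). Without 24 h replicate 3 the 24 h value was -0.03 (edgeR adjusted p = 0.902). At 72 h its libraries read 18.8, 17.1 and 18.1 CPM, all below sham, a fall by 0.79 on the log2 scale (SE 0.16, edgeR adjusted p = 0.000208). When libraries were scaled by their totals alone, the 72 h value was -0.21 (edgeR adjusted p = 0.267). Exons of Mars, on the opposite strand, overlap those of Ddit3, as do those of a second Ddit3 model not analysed here, so without a stated strand their reads cannot be told apart.

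Trib3 encodes a pseudokinase that restrains ATF4 and Akt signalling (chromosome 2, 152337422 to 152344032, minus strand, ENSMUSG00000032715). It was low throughout, between 2.46 and 5.96 CPM in 17 of 18 libraries, with 24 h replicate 3 at 15.8 CPM. The other two 24 h libraries read 5.96 and 3.93 CPM, just above and just below the sham range of 4.09 to 5.29. Against sham edgeR called Trib3 at no time, with a log2 fold change of 0.83 at 24 h (SE 0.35, edgeR adjusted p = 0.066). DESeq2 called the 24 h value (0.85, DESeq2 adjusted p = 0.0471), and edgeR did without 24 h replicate 1 (1.05, edgeR adjusted p = 0.0338) or replicate 2 (1.19, edgeR adjusted p = 0.00396). Without replicate 3 the 24 h mean was 4.94 in place of 8.57 CPM, against 4.76 in sham, and the value was not called. It fell from 24 h to 72 h by 1.09 on the log2 scale (edgeR adjusted p = 0.0156). That fall rested on 24 h replicate 3, without which it was -0.31 (edgeR adjusted p = 0.254), and it was also lost without 72 h replicate 1 (-1.0, edgeR adjusted p = 0.0567). The neutrophil sum of 24 h replicate 3 was 744 CPM, against 173 and 43.0 in replicates 1 and 2. Its cardiomyocyte sum was 24167 CPM, against 37863 and 33156, and its macrophage sum 606, against 527 and 553. In 6 h replicate 1, with a neutrophil sum of 748 CPM, Trib3 read 4.83 CPM, against 5.88 and 5.86 in 6 h replicates 2 and 3. The part of these shifts in the result was not tested.

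Chac1 encodes an enzyme that breaks down glutathione (chromosome 2, 119351229 to 119354381, plus strand, ENSMUSG00000027313). It read 4.65, 4.98 and 3.46 CPM in sham, 7.72, 5.21 and 4.02 at 10 min, 3.57, 10.1 and 4.14 at 1 h, and 4.83, 10.0 and 6.76 at 6 h. These groups overlapped, and the 6 h value of 0.73 (SE 0.39) was not called (edgeR adjusted p = 0.181). At 24 h it read 4.92, 2.26 and 4.07 CPM and at 72 h 2.08, 1.98 and 1.177, below all other libraries. Chac1 fell at 72 h by 1.31 on the log2 scale against sham (SE 0.42, edgeR adjusted p = 0.0107), a call lost without 72 h replicate 3 (-1.1, edgeR adjusted p = 0.0505). Scaled by library totals alone the value was -0.73 (edgeR adjusted p = 0.106). The fall from 24 h to 72 h (-1.09, edgeR adjusted p = 0.0386) was lost without 24 h replicate 1 or 3 or without any 72 h replicate, at values of -1.23 to -0.83.

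Asns encodes asparagine synthetase, a classic ATF4 target of the amino acid response (chromosome 6, 7675169 to 7693254, minus strand, ENSMUSG00000029752). It was low in sham at 2.78, 2.13 and 2.27 CPM, and read 3.36, 2.94 and 2.68 at 10 min and 1.74, 2.13 and 2.04 at 1 h. It read 9.06, 8.09 and 6.92 CPM at 6 h, 6.65, 7.18 and 17.1 at 24 h, and 6.47, 11.02 and 7.32 at 72 h. All 9 later libraries were above all 9 earlier ones. The log2 fold change against sham was 1.74 at 6 h (SE 0.31, edgeR adjusted p = 0.000541), 2.1 at 24 h (edgeR adjusted p = 5.71e-05) and 1.79 at 72 h (edgeR adjusted p = 5.19e-05). Without 24 h replicate 3 its 24 h mean was 6.91 in place of 10.3 CPM, and the call held. Asns and Chac1 both carry the CARE letters shown above, and at 72 h Asns was above sham and Chac1 below it.

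**Figure D3:**
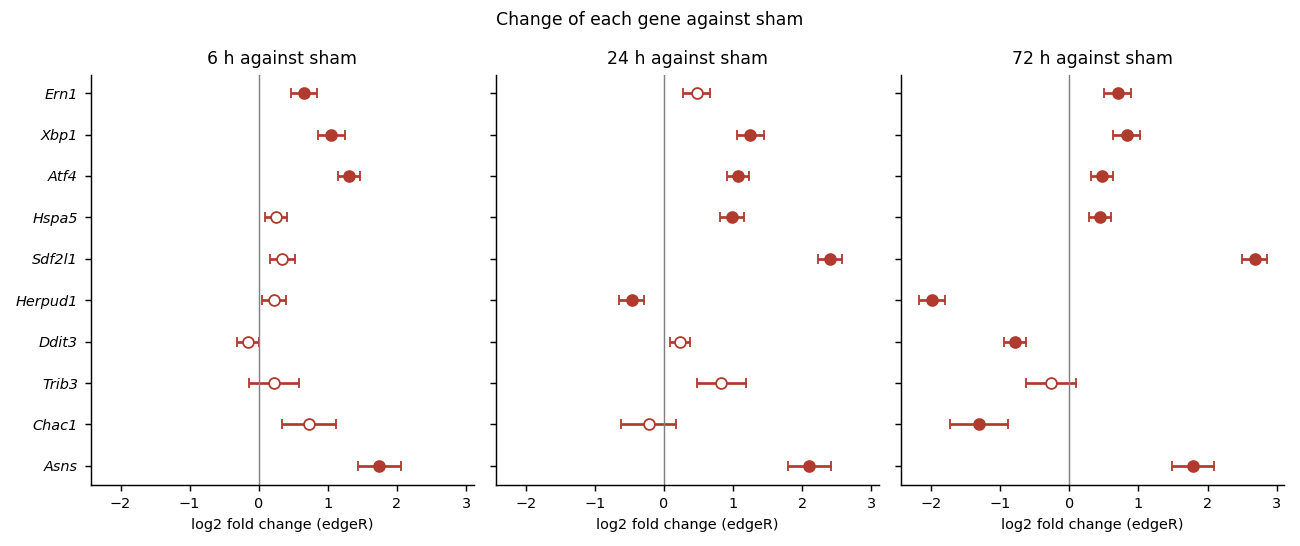
edgeR log2 fold change against sham (x axis) of the 10 genes (y axis) at 6 h, 24 h and 72 h; bars are standard errors and filled points passed an adjusted p of 0.05. Sdf2l1 went from 0.34 at 6 h to 2.40 and 2.68, Herpud1 from 0.22 to -0.47 and -1.99, and the 3 panels share the sham libraries.

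Ranked by group mean, the genes peaked at different times. Atf4 and Chac1 had their highest mean at 6 h, Hspa5, Xbp1, Ddit3, Trib3 and Asns at 24 h, Sdf2l1 and Ern1 at 72 h, and Herpud1 at 1 h. The 24 h peaks of 4 genes rested on 24 h replicate 3, the library with the highest neutrophil and macrophage sums and the lowest cardiomyocyte sum of its group. Without it the 24 h mean of Xbp1 was 111.1 CPM, below 117.7 at 6 h, and that of Ddit3 was 30.5, below 31.1 in sham. That of Trib3 was 4.94, below 5.52 at 6 h, and that of Asns was 6.91, below 8.02 at 6 h and 8.27 at 72 h. Hspa5 stayed highest at 24 h, at 691 CPM. At 6 h, replicate 1 held the highest neutrophil and macrophage sums and the lowest cardiomyocyte sum. Of these 4 genes, Xbp1 and Asns had their highest 6 h values in that library, and Ddit3 and Trib3 their lowest. The part of these shifts in the result was not tested. Few differences between neighbours in these orders were called. For Hspa5, Chac1 and Herpud1 the only gap between neighbours that was called lay between 24 h and 72 h, and for Sdf2l1 it lay between 24 h and 6 h. Atf4 had called gaps between 24 h and 72 h and between 72 h and 1 h (0.42, edgeR adjusted p = 0.0315). For Xbp1 the gap lay between 72 h and 10 min (0.83, edgeR adjusted p = 0.00145), for Asns between 6 h and 10 min (1.42, edgeR adjusted p = 0.00247), and for Ddit3 between 6 h and 10 min (0.48, edgeR adjusted p = 0.0313). Trib3 and Ern1 had no called gap between neighbours. From 24 h to 72 h 0 of the 10 genes rose and 6 fell, with 50.5% of all genes called, 24.4% higher and 26.1% lower. By library totals alone, where the median of the whole table rose by 0.36 over that interval, the falls of Hspa5 (-0.13), Atf4 (-0.20), Trib3 (-0.69) and Chac1 (-0.69) were not called, and those of Ddit3 and Herpud1 were. From 6 h to 24 h 2 rose and 1 fell, with 27.8% of all genes called, 14.2% higher and 13.7% lower. From 1 h to 6 h 4 rose and 0 fell, with 24.5% of all genes called, 14.5% higher and 10% lower, and from 10 min to 1 h 0 were called, with 0.307% of all genes. Between 10 min and 6 h 26.5% of all genes were called, between 10 min and 72 h 64.9%, and between 1 h and 72 h 66.9%.

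Levels of different genes were compared per kilobase of gene length (CPM per kb). In sham Hspa5 stood highest at 92.8 CPM per kb, then Herpud1 at 72.6, Atf4 at 37.8, Ddit3 at 18.1 and Xbp1 at 17.5. Sdf2l1 followed at 5.602, Chac1 at 2.67, Trib3 at 2.24, Ern1 at 1.43 and Asns at 0.874. At 72 h Hspa5 was still highest at 126, followed by Atf4 at 52.7 and Sdf2l1 at 35.9. Herpud1 had dropped to 18.3 CPM per kb, below Xbp1 at 31.1. Sdf2l1 thus stood below both Xbp1 and Herpud1 in sham and above both at 72 h.

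The wider pathways were read from 5 lists of 81 other genes, of which 80 passed the filter (Fgf21 did not). At 10 min 0 of the 80 were called, and at 1 h 2 were higher: Atf3 (4.86) and Ppp1r15a (1.39), log2 fold changes of 2 genes named after their values were seen. The 1 h call of Ppp1r15a was lost without the filter on low counts and when any of 11 single libraries was left out (each sham, 1 h and 72 h replicate, 10 min replicate 2 and 6 h replicate 3). With the replicate block, with only the 6 libraries compared or with DESeq2, 2 genes of its list were called at 1 h. Ppp1r15a encodes GADD34, which reverses eIF2-alpha phosphorylation, and its group mean ran from 17.4 CPM in sham through 45.8 at 1 h and 85.6 at 6 h back to 17.9 by 72 h. At 6 h 30 of 80 were higher (37.5%) and 2 lower (2.5%), at 24 h 58 higher (72.5%) and 3 lower (3.75%), and at 72 h 53 higher (66.2%) and 12 lower (15.0%). Of all genes tested, 16.3% were higher and 12.2% lower at 6 h, and 23.7% and 20.2% at 24 h. At 72 h these shares were 34.2% and 32.2%. The shares of all genes called in either direction at 10 min and 1 h were 0.0736% and 0.294%. Under scaling by library total alone the median log2 fold change of the whole table was -0.12 at 6 h, then 0.20 at 24 h and finally 0.61 at 72 h, and the list counts moved with it as given below.

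Among 18 ER chaperones and folding enzymes, 3 rose at 6 h, 16 at 24 h and 14 at 72 h, while 0, 0 and 1 fell. The list's median log2 fold change was 0.06, 0.82 and 1.12 at the 3 times. Of all genes 16.3% were higher at 6 h, 23.7% at 24 h and 34.2% at 72 h, so the 6 h count lay near the table's share. Pdia6, Pdia3 and Ppib, described below, had the list's smallest adjusted p over the 5 comparisons with sham. The 6 h count was 1 without sham replicate 1, sham replicate 2 or 6 h replicate 1, and 5 without 24 h replicate 3. By library totals alone the counts were 1 higher and 2 lower at 6 h, 17 and 0 at 24 h, and 17 and 0 at 72 h. Pdia6, a protein disulphide isomerase, had a mean of 99.2 CPM in sham, 129 by 6 h, 230.03 by 24 h and 357 by 72 h (a rise of 1.85 on the log2 scale, edgeR adjusted p = 6.85e-11). Pdia3, which folds glycoproteins, went from 134 to 429 CPM at 72 h (1.67, edgeR adjusted p = 1.95e-10). Ppib, a prolyl isomerase known for its work on collagen, went from 28.9 to 96.7 CPM (1.74, edgeR adjusted p = 1.5e-10). Dnajb9, a BiP partner, was the member that fell at 72 h (-0.64), after standing 0.59 above sham at 24 h; it was named after its values were seen. Among 14 genes of ER-associated degradation and translocation, Herpud1 left aside, the number that rose was 2 at 6 h, 13 by 24 h and 11 by 72 h, and 1, Nploc4 (-0.46, named after its values were seen), fell at 72 h. The 6 h count of degradation genes was 0 without sham replicate 1, sham replicate 3 or 6 h replicate 1, and 1 without any of 9 other libraries (sham replicate 2, each 10 min and 1 h replicate, 6 h replicate 2 and 72 h replicate 3) or with the replicate block. By library totals 0 rose at 6 h, 14 at 24 h and 13 at 72 h, with 0 lower at each. The main 6 h count of 2 was likewise near the 16.3% of all genes higher then. This list's median log2 fold change was 0.1, 0.48 and 0.76 at the 3 times. Sec61b, Sec61a1 and Edem2 had its smallest adjusted p over the 5 comparisons with sham. Sec61b, a subunit of the translocon, had sham libraries averaging 11.1 CPM and reached 31.7 by 24 h and 56.0 by 72 h (2.33, edgeR adjusted p = 1.48e-10). Sec61a1, the channel itself, went from 29.7 to 98.8 CPM at 72 h (1.73) and Edem2, which trims misfolded glycoproteins, from 10.3 to 25.1 CPM (1.28). At 72 h, where these lists were high, the fibroblast sum was 9939 to 12463 CPM against 691 to 769 in sham. The macrophage sum was 3105 to 4121 CPM against 246 to 280, and the cardiomyocyte sum 13414 to 17579 against 55123 to 60176. At 24 h, when most genes of both lists had already risen, the fibroblast sum was 795 to 1125 CPM. The part of these shifts in the result was not tested. Herpud1 ran against this list, as Nploc4 did, falling by 1.99 on the log2 scale at 72 h where the list's median was 0.76.

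**Figure D4:**
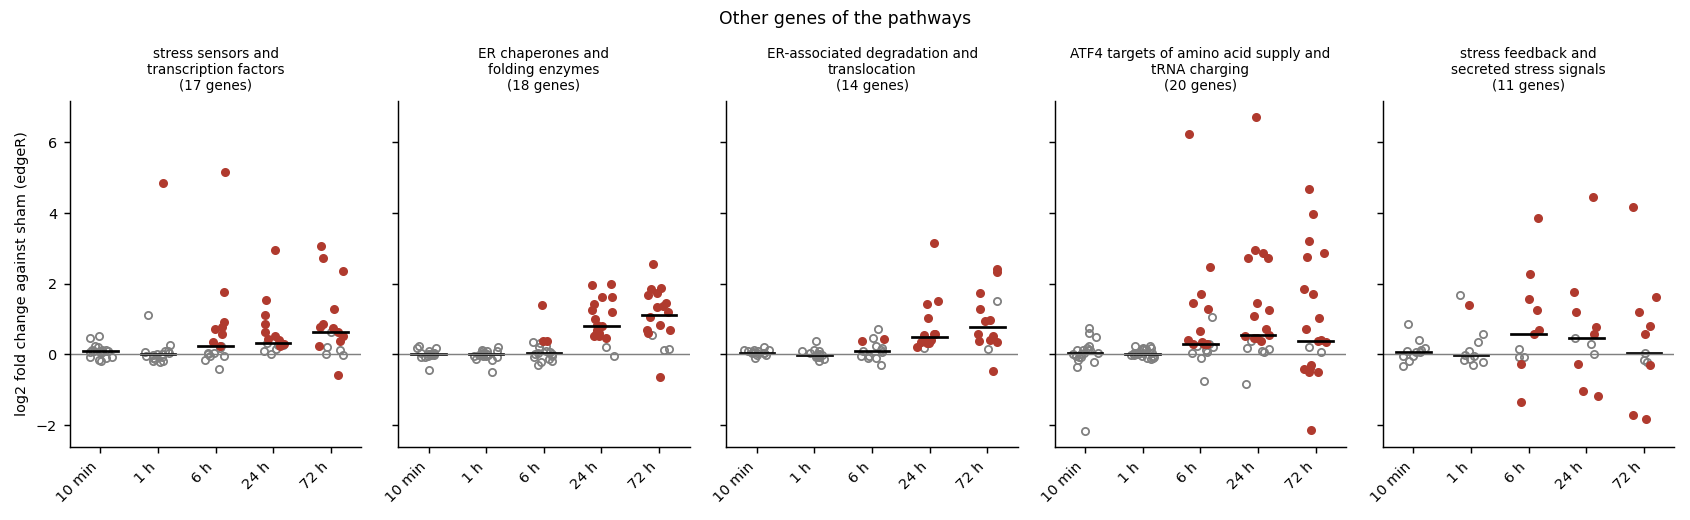
edgeR log2 fold changes against sham (y axis) at 10 min to 72 h (x axis) of the 80 other pathway genes in 5 lists; each point is a gene, filled where called, spread sideways for legibility, and the line is the list's median. Chaperones were near 0 to 6 h (median 0.06) and at 0.82 and 1.12 at 24 h and 72 h.

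Of 20 ATF4 targets of amino acid supply and transfer RNA charging, 11 rose at 6 h, 14 by 24 h and 12 by 72 h. The 6 that fell at 72 h, named after their values were seen, were Shmt2, Slc7a1, Cth, Wars, Mars and Iars (-2.14 to -0.30). That number was near the 32.2% of all genes that were lower at 72 h. Exons of Mars overlap those of Ddit3, so without a stated strand their reads cannot be told apart. The 6 h count was 6 without 6 h replicate 1 and 7 without sham replicate 2 or 3. Without 24 h replicate 2, or with the replicate block, 1 of these targets fell at 24 h. By library totals alone 6, 18 and 15 rose, and 1 fell at 72 h. Of all genes 16.3% were higher at 6 h, 23.7% at 24 h and 34.2% at 72 h. The list's median log2 fold change was 0.31, 0.54 and 0.39 at the 3 times. Psat1, Mthfd2 and Pycr1 had its smallest adjusted p over the 5 comparisons with sham, so their changes are not typical of the list. Psat1, of serine synthesis, averaged 3.03 CPM in sham, 7.44 by 6 h, 22.3 by 24 h and 20.5 by 72 h (2.76, edgeR adjusted p = 5.91e-09). Mthfd2, of mitochondrial folate metabolism, went from 2.14 to 7.11, 16.7 and 15.7 CPM (2.86 at 72 h, edgeR adjusted p = 9.51e-08). Pycr1, of proline synthesis, was at 1.29 CPM in sham and 1.35 at 6 h, and reached 11.9 at 72 h (3.2, edgeR adjusted p = 2.05e-09). Of the 17 other sensors and transcription factors, the number that rose was 8 at 6 h, 10 by 24 h and 11 by 72 h, and 1, Atf6 (-0.59, named after its values were seen), fell at 72 h. The 6 h count was 4 without sham replicate 2 and 5 without sham replicate 1 or 6 h replicate 1, and the 24 h count was 6 without sham replicate 2 or 24 h replicate 3. Without 10 min replicate 3, 1 h replicate 2 or 24 h replicate 3, 1 gene of this list fell at 6 h. By library totals 6, 16 and 16 rose, 1 fell at 6 h and 0 fell at 72 h. The median log2 fold change of this list was 0.24, 0.32 and 0.63 at the 3 times. Nupr1, Creb3 and Eif2ak2 had its smallest adjusted p over the 5 comparisons with sham. Nupr1, a stress-induced chromatin regulator, went from 4.07 to 20.9 CPM at 72 h (2.36) and Creb3, an ER-bound transcription factor, from 31.2 to 53.1 (0.77). Eif2ak2, the eIF2-alpha kinase PKR that senses double-stranded RNA, went from 12.3 to 30.2 CPM at 72 h (1.30). Without 6 h replicate 1 and 24 h replicate 3 together, the sensors and factors higher at 24 h were 7 and the degradation genes 10, and the chaperones remained at 16.

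Among the 11 feedback and secreted signals tested, 6 rose and 2 fell at 6 h, 5 rose and 3 fell at 24 h, and 5 rose and 3 fell at 72 h. The count of 2 that fell at 6 h was 1 when any of 11 single libraries was left out (sham replicates 1 and 3, 10 min replicates 1 and 2, 1 h replicate 3 and each 6 h and 72 h replicate). By library totals the counts were 6 and 2, 6 and 2, and 8 and 2. Of all genes 16.3%, 23.7% and 34.2% were higher at 6 h, 24 h and 72 h, and 12.2%, 20.2% and 32.2% lower. The numbers that fell were near those shares. The list's median log2 fold change was 0.57, 0.48 and 0.04. Gdf15, Stc2 and Vldlr had its smallest adjusted p over the 5 comparisons with sham. Gdf15, a secreted stress signal, averaged 0.985 CPM in sham, 14.5 ± 7.01 at 6 h, 21.8 ± 15.0 at 24 h and 18.01 ± 1.16 at 72 h (SD, n = 3; 72 h value 4.18 on the log2 scale, edgeR adjusted p = 3.47e-06). Stc2, a secreted glycoprotein, fell from 26.6 to 10.5 CPM at 6 h (-1.34, edgeR adjusted p = 8.08e-05) and was at 8.16 at 72 h. Vldlr, a lipoprotein receptor and known ATF4 target, fell from a sham mean of 233 CPM to 115 by 24 h and 66.0 by 72 h (-1.82, edgeR adjusted p = 5.28e-08).

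For each of the 10 genes the nearest patterns were looked for among 11693 other genes, by the root mean square difference of log2 CPM, each gene centred on its own mean over the 18 libraries. Atf4 lay nearest to Gnl3 (0.123) and Rassf1 (0.125), and Xbp1 to Heatr1 (0.12) and Nop58 (0.127). Hspa5 lay nearest to Uso1 (0.138), Ern1 to Gna13 (0.156), Herpud1 to Prodh (0.17) and Kcnj12 (0.178), and Ddit3 to Adrm1 (0.198). Chac1 had Fbxo32 (0.336), Trib3 had Hgh1 (0.30) and Asns had Eif1a (0.276). Sdf2l1 lay nearest to Jpt2 (0.29) and to Sec61b of the translocon (0.324). Among the 10 genes themselves the closest pair was Atf4 and Xbp1 at 0.252 and the most distant was Herpud1 and Sdf2l1 at 1.866. The distances are not scaled to how much each gene varied, so they do not compare from gene to gene. For scale, the SD of log2 CPM over the 18 libraries was 0.386 for Ddit3, 0.526 for Trib3, 0.59 for Xbp1 and 0.955 for Asns. These distances describe likeness over the same 18 libraries, whose depth and tissue makeup differed as given above.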

How the data were processed

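RNA from 18 left ventricles was sequenced after poly(A) selection, per the labels' protocols. Per the submitters' processing notes, reads were handled with cutadapt 1.18, HISAT2 2.1.0 and featureCounts on mm10; annotation, strand and multimapping are not given in the sources used here. The authors deposited raw counts per gene and FPKM values. The counts were tested. The deposited FPKM served only to recover gene lengths, since the FPKM columns of 6 h replicates 2 and 3 hold each other's counts. For 9 of the 10 genes that length equals the annotated exon length; for Atf4 it is 1724 against 2358 bases, and 1724 was used. Symbols came from GENCODE M21 (30512 of 30583 identifiers matched).

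Genes were filtered with filterByExpr (14272 removed), scaled by TMM and fitted with edgeR 4.0.16 (R 4.3.3) over all 18 libraries with 1 mean per group; adjusted p is Benjamini-Hochberg over 16311 genes, two-sided, called under 0.05. The fit was tested on simulated data for 72 h against sham with 15503 genes. The simulation changed 100 genes 2-fold and 100 genes 4-fold, at 72 h only. Of these, 59% of 2-fold and 89% of 4-fold changes were recovered, with 10 of 158 calls false. So few changed genes cannot show how the fit or TMM scaling behaves in the real 72 h comparison, where 66.4% of genes were called. Library totals were 18199172 to 25062351 counts, and genes of a few CPM have larger counting errors. The 10 genes and all lists were chosen with earlier results of these data known. Named pathway genes are up to 3 per list with the smallest adjusted p over the 5 comparisons with sham and a mean of at least 50 counts; the nearest 2 patterns per gene were ranked under the same minimum. Alternatives were RLE scaling (size factors), library totals, no filter, DESeq2 1.42.0, only the 6 libraries compared, a replicate block and leaving out each library; leaving out 2 libraries together, and the alternatives for list counts, were added after seeing the data.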

Additional observations from a re-analysis of the deposited data

How the results depend on the processing

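Over the 9 comparisons with sham or the preceding time there were 32 calls among the 10 genes. All 32 held with RLE scaling, with DESeq2 and with the replicate block; 24 held with library totals, 29 without the filter on low counts, 26 with only the 6 libraries compared, and 29 without 6 h replicate 1 and 24 h replicate 3 (added after seeing the data). The block gave 9 called genes at 72 h, as without it, and changed no call of the 10 genes; nothing states that equal numbers pair mice, and same-numbered libraries deviated with r of -0.09 to 0.06. Among named genes of the lists, Sec61a1 at 6 h lost its call under the block (0.44, edgeR adjusted p = 0.0561), which took the degradation list from 2 to 1 there; the feedback list went from 1 to 2 at 1 h, and the ATF4 targets lower at 24 h from 0 to 1.

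The count of called genes moved as follows. At 10 min against sham it was 0, but 1 without the filter, with only the 6 libraries and without both libraries. At 1 h against 10 min it was 0, but 2 with only the 6 libraries and 2 without both. From 6 h to 24 h it was 3, but 5 by library totals and 1 with only the 6 libraries. From 24 h to 72 h it was 6, but 3 with only the 6 libraries, and 2 of the 10 genes were higher by library totals or without both libraries. Leaving out single libraries gave 0 to 1 at 10 min, 0 at 1 h, 3 to 4 at 6 h, 5 to 7 at 24 h and 7 to 9 at 72 h against sham. It gave 0 for 1 h against 10 min, 4 to 5 for 6 h against 1 h, 2 to 4 for 24 h against 6 h and 3 to 7 for 72 h against 24 h; the lowest came without 72 h replicate 1. By library totals 8 genes were higher and 0 lower at 24 h, and 6 higher and 1 lower at 72 h. Ddit3 at 72 h against 6 h, -0.63 under TMM, was 0.07 by library totals (edgeR adjusted p = 0.725); that scaling puts the median of all genes at 0.61 above sham at 72 h. Over all genes, the 12 calls at 10 min became 360 with only the 6 libraries and 58 with DESeq2, the 48 at 1 h became 190 and 93, the 4639 at 6 h became 2926 without 6 h replicate 1, and the 4541 from 6 h to 24 h became 1024 with only the 6 libraries and 6880 by library totals. Ddit3 at 24 h against sham, 0.23, ran from -0.03 (without 24 h replicate 3, alone or with 6 h replicate 1) to 0.36 when single libraries were left out. Herpud1 lost its 24 h calls against sham (-0.29) and 6 h (-0.41) by library totals, and the rise of Hspa5 from 6 h to 24 h lost its call with only the 6 libraries (0.72, edgeR adjusted p = 0.0864). The cause was not tested.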
